A study of Mus musculus with 21 samples.

Results

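The 10 genes described here encode the transcription regulators that set up and hold the B-cell programme: Tcf3, Ebf1, Foxo1, Pax5, Ikzf1, Ikzf3, Spib, Pou2af1, Bcl11a and Lef1. Every array probe whose RefSeq accession belongs to 1 of these symbols was taken, which gave 14 of the 55681 gene probes and 10 of the 20018 genes named on the array. Where a gene had several probes, the probe with the highest mean over all arrays was used, and the other probe of Pax5, Foxo1, Tcf3 and Ikzf1 served as a check. No measured difference between groups entered this choice of probe. The genes themselves were chosen with earlier results of these data known.

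B cells arise from lymphoid progenitors through a stepwise network of these regulators. E2A, the product of Tcf3, and EBF1 open the chromatin of early B-cell genes together with FOXO1, and PAX5 then locks in the lineage by activating B-cell genes and repressing those of other lineages. The study concerns Bach1 and Bach2, related transcription repressors that bind sites with an AP-1-like core and that act in lymphoid progenitors and in B cells.

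Gene expression was measured on 21 single-colour mouse arrays in 3 separate experiments, with 7 groups of 3 arrays each. The first experiment compared common lymphoid progenitors (CLPs) sorted from bone marrow of mice with compound Bach1/Bach2 deficiency (DD) with CLPs of WT mice, each RNA being pooled from several mice. The second used multipotent progenitors (MPPs) of WT mice, defined as Lin-, c-kit+, Sca-1+ and Flt3mid and pooled from 4 mice per experiment, which were held overnight in SCF at 50 ng/ml, IL-3 at 5 ng/ml and IL-6 at 10 ng/ml and then spin-infected with a retrovirus. The third compared follicular B cells (FoB) of Bach2KO mice with FoB cells of WT mice, all held for 24 h with anti-IgM Fab' fragments at 10 ug/ml. Within the MPP experiment, the B220+ group had received the Bach2-GFP vector, 24 h of multi-lineage culture and 6 days of B-lineage culture, and was sorted for GFP and B220. The Bach2-vector MPPs received the same vector and 2 days of multi-lineage culture, and the control-vector MPPs received MSCV-GFP and the same 2 days, and both were sorted for GFP alone. The B220+ cells thus differ from each MPP group in culture time, medium and sort as well, and no control-vector B220+ group was analysed here. The labels name no separate animals for the FoB arrays and state that 1 RNA sample per genotype was amplified, so the p-values there measure a spread that may be technical.

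Levels are given as log2 of the signal relative to the 75th percentile of the same array, so that 0 marks a gene at that percentile. A difference is the mean of the first-named group minus the mean of the second on that scale, and it passed when limma's test with Benjamini-Hochberg adjustment over all genes tested gave an adjusted p under 0.05. That percentile had a signal of 2858 to 5127 on the CLP arrays, 2071 to 3377 on the MPP arrays and 97.3 to 358 on the FoB arrays, and 50.9% to 81.5% of spots per array were well above background. Bach2 itself had levels of -0.07, -1.01 and -0.09 in Bach2KO FoB cells, against 3.49, 3.06 and 3.55 in WT FoB cells, a 13.5-fold lower mean (adjusted p = 9.18e-04, limma). Its probe with the highest mean read 1.17, 0.10 and -0.27 in DD CLPs against 3.46, 1.49 and 2.38 in WT CLPs, and -0.92, -2.03 and -2.57 in Bach2-vector MPPs against -3.87, -2.96 and -2.15 in control-vector MPPs, and neither difference passed (adjusted p = 0.999 and 0.775, limma). A second Bach2 probe was well above background on all 3 Bach2-vector MPP arrays and on 1 of 3 control-vector MPP arrays, with levels of -1.25, -3.57 and -3.90 against -8.57, -7.11 and -6.34. In B220+ Bach2-vector cells the first Bach2 probe read -2.75, -2.49 and -4.10, and neither its difference from Bach2-vector MPPs (-1.27 ± 0.60, SE; adjusted p = 0.230, limma) nor that from control-vector MPPs (-0.12 ± 0.60, SE; adjusted p = 0.909, limma) passed. The second probe read -5.12, -5.02 and -1.54 there, well above background on all 3 arrays. Whether either probe lies within the deleted part or the vector insert is not given in the sources used here. Bach1 did not pass in any of the 5 comparisons (adjusted p = 0.484 to 0.999, limma).

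The windows just before the start of 3 of the genes are shown because Foxo1, Spib and Bcl11a are the members that passed in the MPP experiment below. They are the 250 bases before the annotated start in RefSeq, build GRCm38.p6, written 5′ to 3′ along the gene's own strand. Capitals mark a match to the palindromic EBF site, which reads TCCC, any 2 bases and GGGA.
Foxo1 (chr3:52268087-52268336, plus strand): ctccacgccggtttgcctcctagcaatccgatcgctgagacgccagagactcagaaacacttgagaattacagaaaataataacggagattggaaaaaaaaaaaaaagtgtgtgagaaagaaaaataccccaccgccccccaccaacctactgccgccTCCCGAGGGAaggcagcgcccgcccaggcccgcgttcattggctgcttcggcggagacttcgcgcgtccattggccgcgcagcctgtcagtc
Spib (chr7:44532072-44532321, minus strand): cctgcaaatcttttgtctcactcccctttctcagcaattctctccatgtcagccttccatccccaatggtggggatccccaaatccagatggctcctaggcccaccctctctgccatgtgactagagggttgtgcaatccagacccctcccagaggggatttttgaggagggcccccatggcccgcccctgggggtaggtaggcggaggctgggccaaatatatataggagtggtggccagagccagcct
Bcl11a (chr11:24080445-24080694, plus strand): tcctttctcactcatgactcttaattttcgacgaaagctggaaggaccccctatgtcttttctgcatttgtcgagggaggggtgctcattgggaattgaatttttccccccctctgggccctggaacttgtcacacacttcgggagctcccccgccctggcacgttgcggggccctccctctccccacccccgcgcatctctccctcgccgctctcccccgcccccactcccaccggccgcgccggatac
The Foxo1 window held 1 EBF match, from base 92 to base 83 before the start. That motif occurred in 256 of 32851 windows of this length, or 0.779%, and in 0.914% of genes. The search covered both strands of 14 windows from 9 of the 10 genes, all but Ikzf3. Of the 4 other motifs searched, the Bach and AP-1 core TGANTCA, where N is any base (6.75% of all windows) and the octamer ATTTGCAT (1.6%) matched in none of these 14 windows. The E-box CAGCTG (13% of all windows) matched in 1 Lef1 window, and the CRE-like core TGACNTCA (7.49%) in 1 Ikzf1 window. A match describes the letters of a window and is no evidence that a protein binds there.

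Across the 7 groups the factors differed in the range of their levels on the probes used. Levels across experiments are described without a test, since amplification, slide and culture differ along with the cells. Tcf3, measured on 20 arrays, and Ikzf1 lay above the 75th percentile on every array that measured them: their group means spanned 2.42 and 2.25 on the log2 scale, from 2.19 in Bach2KO FoB cells to 4.61 in B220+ Bach2-vector cells for Tcf3, and from 2.18 in control-vector MPPs to 4.42 in DD CLPs for Ikzf1. The second Ikzf1 probe had group means from -6.23 in B220+ Bach2-vector cells to 0.04 in WT FoB cells. Both CLP groups stood at -5.6 on it. The second Tcf3 probe had group means from -1.2 in DD CLPs to 0.8 in control-vector MPPs. Ikzf3 spanned 2.45, and Spib, well above background on all 21 arrays, spanned 9.92. Pou2af1 and Ebf1 spanned 11.3 each as measured, but the lowest group of Ebf1 was above background on 0 of 3 arrays and that of Pou2af1 on 2 of 3, so these spans have no exact size.

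**Figure D1:**
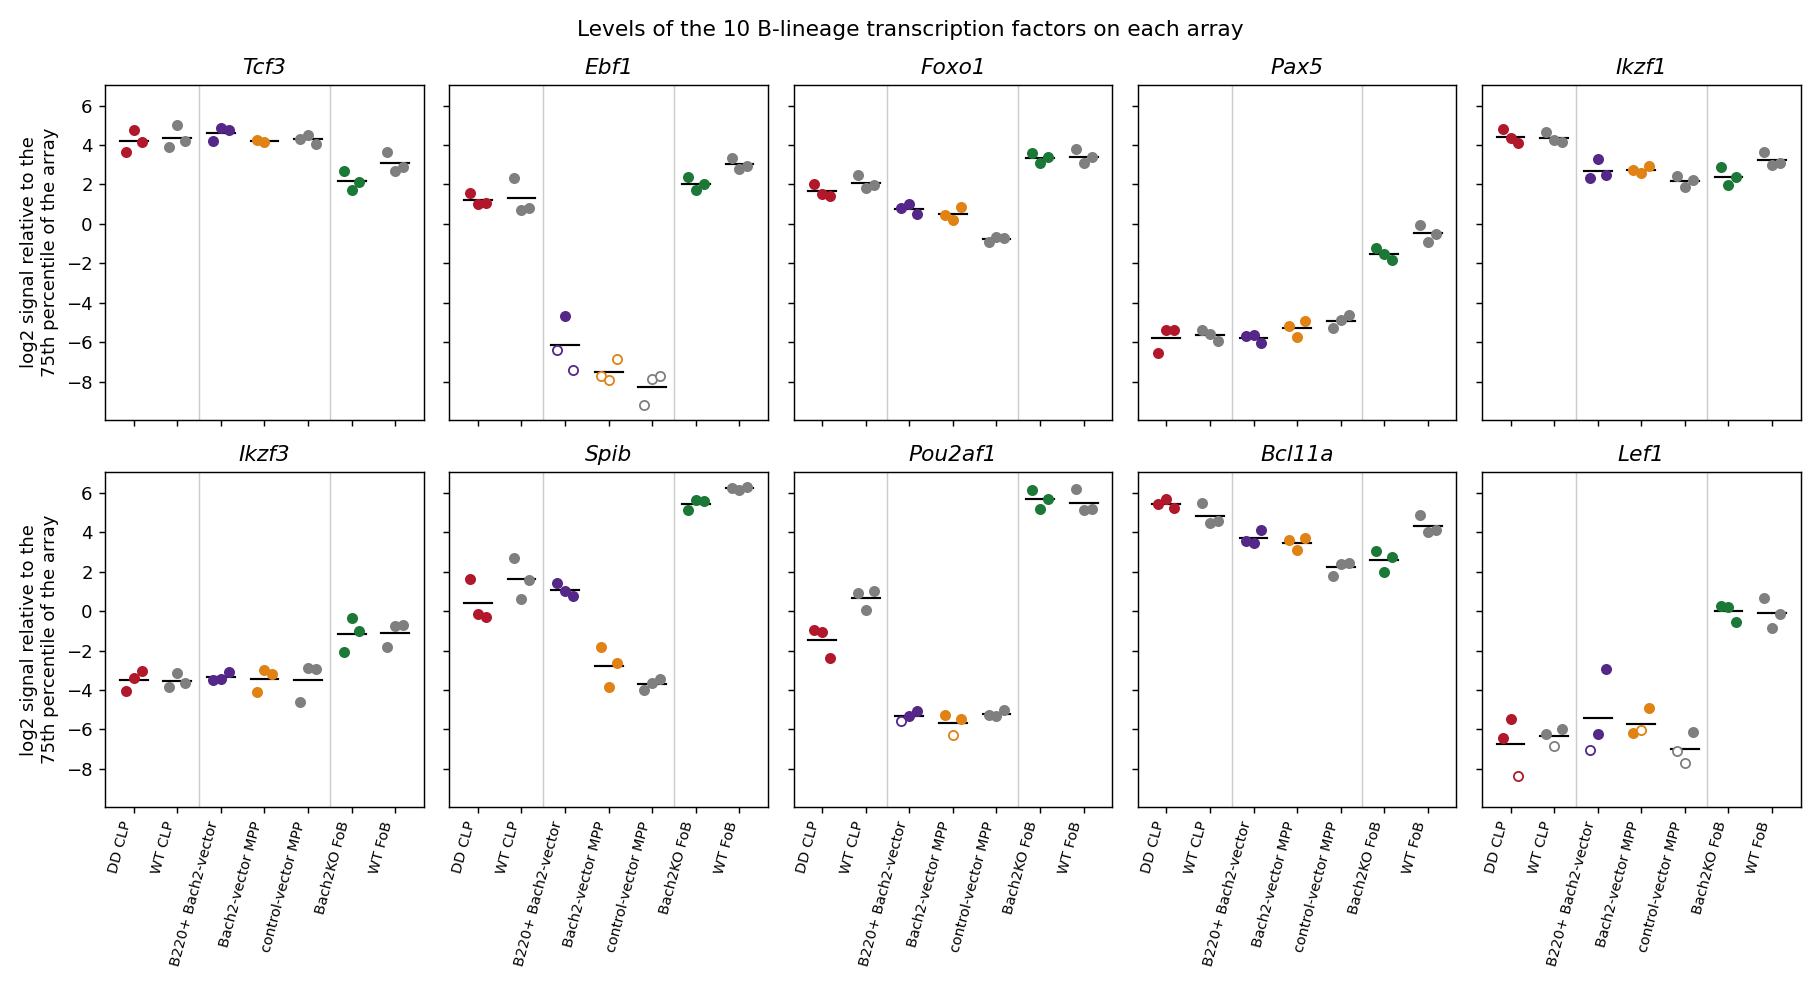
Level of each factor on every array, as log2 of signal over the 75th percentile of the array, in 7 groups of 3 arrays, with grey lines between the experiments. Filled points were well above background, open points were not, and bars mark group means. Ebf1 is open on 8 of the 9 MPP-experiment arrays, and Spib is higher in B220+ Bach2-vector cells than in both MPP groups.

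Ebf1, the pioneer factor of the B lineage, averaged 3.02 ± 0.30 in WT FoB cells, 1.29 ± 0.91 in WT CLPs and -8.27 ± 0.79 in control-vector MPPs (SD, n = 3 each), and no array of the last group was well above background. Pax5 was far lower in CLPs than in FoB cells, with means of -5.78 in DD CLPs and -5.64 in WT CLPs against -1.54 in Bach2KO FoB cells and -0.49 in WT FoB cells. The MPPs had Pax5 means of -5.28 with the Bach2 vector and -4.94 with the control vector. On this probe the Bach2-vector arrays overlapped those of the CLPs while all control-vector arrays lay above them. The second Pax5 probe did not show this. It read -5.86, -6.54 and -6.56 in control-vector MPPs, within the WT CLP range, at -5.25, -6.11 and -7.04. On that probe 1 of 3 arrays in each of these 2 groups was well above background. Only 2 of the 6 steps between neighbouring groups in the order of Ebf1, and 2 of 6 for Pax5, were free of overlap between arrays.

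Spib, an ETS-family factor of B cells and plasmacytoid dendritic cells, and Pou2af1, the coactivator OBF-1 of the octamer factors, were highest in FoB cells. Spib averaged 6.22 ± 0.07 in WT FoB cells, 1.64 ± 1.04 in WT CLPs and -3.70 ± 0.28 in control-vector MPPs (SD, n = 3 each). Lef1, a mediator of Wnt signalling in lymphoid precursors, was well above background on all 6 FoB arrays and on 9 of the other 15. Ikzf3, which encodes the Ikaros relative Aiolos, had means between -3.55 and -3.33 in the 5 progenitor and cultured groups, and of -1.14 in Bach2KO FoB cells and -1.10 in WT FoB cells.

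After the mean of each experiment was removed, the likest pairs among the factors over the 21 arrays were Ebf1 with Foxo1 (Pearson r = 0.75), Foxo1 with Spib (r = 0.75), Ebf1 with Spib (r = 0.73) and Ikzf1 with Bcl11a (r = 0.73), and the least alike were Ikzf1 and Ikzf3 (r = -0.45). With the same removal, 14465 other genes on these arrays were searched. The gene whose values were most like those of Spib was Fcrla (r = 0.95), and that of Foxo1 was Snn (r = 0.92). That of Tcf3 was Tubb5 (r = 0.92 over 20 arrays) and that of Bcl11a was Eno3 (r = 0.92). For Pou2af1 it was Zfp568 (r = 0.84). The first-ranked genes for the other 5 factors were LTO1 for Ebf1 (r = 0.90), Ncan for Pax5 (r = 0.83), Tmsb15l for Ikzf1 (r = 0.87), Siglech for Ikzf3 (r = 0.88) and Nat8f1 for Lef1 (r = 0.81). Without the removal, r was -0.51 for Tubb5, -0.09 for Eno3, 0.07 for Nat8f1 and 0.19 for LTO1. For the rest of these first-ranked genes it was 0.60 to 0.98. All these values describe arrays that share slides and experiments and carry no p. Ebf1 was well above background on 13 of the 21 arrays and Lef1 on 15, so their correlations rest in part on signals near background.

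In the MPP experiment the question was what forced Bach2 expression does to progenitors, first after 2 days and then in B220+ cells grown under B-lineage conditions. With the Bach2 vector, Foxo1 was 2.40-fold higher than with the control vector, and it was the only factor to pass, 1 of 9 tested. Bcl11a, a zinc-finger factor needed for early lymphoid development, had nearly the same estimate without passing. Tcf3, Pax5, Ikzf3 and Pou2af1 had estimates between -0.45 and 0.05.

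Foxo1, a forkhead factor that drives Il7r and the Rag genes in early B cells, had levels of 0.47, 0.17 and 0.83 in Bach2-vector MPPs, against -0.94, -0.67 and -0.69 in control-vector MPPs. Every Bach2-vector array was above every control-vector array. The difference was 1.26 ± 0.26 (SE; adjusted p = 0.0490, limma), where 1.07% of the 16991 genes tested passed as higher. Pairs of arrays with the same replicate number deviated together in this comparison, and with that number as a block the Foxo1 difference no longer passed (adjusted p = 0.0898, limma), nor did any other factor, where 1.91% of all genes did. It also missed the threshold without any single array of the 2 groups (adjusted p = 0.0834 to 0.184, limma), and the second Foxo1 probe gave 1.52 ± 0.49 (adjusted p = 0.260, limma). Within slides the Foxo1 difference was 1.42 between 1 array of each group and 1.19 between 2 of each.

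Bcl11a read 3.62, 3.1 and 3.69 in Bach2-vector MPPs, against 1.80, 2.38 and 2.46 in control-vector MPPs. The groups did not overlap and the difference was 1.26 ± 0.30 (SE; adjusted p = 0.0945, limma). Spib had levels of -1.84, -3.84 and -2.63 in Bach2-vector MPPs, against -4.01, -3.64 and -3.45 in control-vector MPPs. Of the 3 Spib arrays with the Bach2 vector, 2 were above all control arrays and 1 lay inside their range (0.93 ± 0.46, SE; adjusted p = 0.719, limma). Ikzf1 read 2.73, 2.58 and 2.94 in Bach2-vector MPPs, against 2.42, 1.86 and 2.25 in control-vector MPPs, and it did not pass (0.57 ± 0.31, SE; adjusted p = 0.830, limma). The second Ikzf1 probe had an estimate of the opposite sign, -0.71 ± 0.81 (SE; adjusted p = 1.00, limma), with overlapping arrays. On the probes used, Foxo1, Bcl11a and Ikzf1 were the 3 factors whose arrays did not overlap, all higher with the Bach2 vector, and 7.66% of all genes were higher without overlap. The median difference of the 9 factors tested was 0.57, against -0.02 over all genes tested.

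Ebf1 was not well above background on any Bach2-vector or control-vector array, so it was not tested and no fold is given between those groups. Pax5 was above background on all 6 of those arrays, with levels of -5.17, -5.74 and -4.92 in Bach2-vector MPPs and -5.30, -4.89 and -4.62 in control-vector MPPs, which overlap. Lef1 was above background on 2 Bach2-vector arrays and 1 control-vector array (1.27 ± 0.95, SE; adjusted p = 1.00, limma).

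Of 26 target genes tested, 2 were higher, where 1.07% of all genes were, Cd72 by 2.40 ± 0.44 and Vpreb3 by 2.03 ± 0.40 on the log2 scale (SE; adjusted p = 0.0299 and 0.0417, limma), and with the replicate block 1 was. Among 30 other regulators of B-cell development, Irf4 was 7.47-fold and Bcl6 6.01-fold higher (adjusted p = 0.0143 and 0.0388, limma). Among 22 regulators of other lineages, the only change was in Cebpd, a C/EBP factor of myeloid cells, 3.23-fold lower (adjusted p = 0.0108, limma). Across all 16991 genes tested, 123 were lower.

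In the B220+ cells 3 factors were higher than in control-vector MPPs: Spib 27.3-fold, Foxo1 2.89-fold and Bcl11a 2.83-fold. No factor was lower by the test. Ebf1 was above background on 1 of 3 arrays there. These comparisons share their arrays with the one above, so the 3 sets of values are not independent.

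Spib had levels of 1.40, 1.03 and 0.78 in B220+ Bach2-vector cells, against -4.01, -3.64 and -3.45 in control-vector MPPs. The lowest B220+ array lay far above the highest control-vector array. The difference was 4.77 ± 0.46 (SE; adjusted p = 4.33e-04, limma), where 4.65% of the genes tested passed as higher. Foxo1 read 0.82, 0.99 and 0.48 in B220+ cells, and its difference from control-vector MPPs was 1.53 ± 0.26 (SE; adjusted p = 0.00605, limma). Bcl11a read 3.58, 3.45 and 4.11 in B220+ cells, with a difference of 1.5 ± 0.30 (SE; adjusted p = 0.0130, limma). In both genes, as in 11% of all genes, every B220+ array was above every control-vector array. The 3 genes also passed without any single array of the 2 groups.

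Against the Bach2-vector MPPs, which carry the same vector, Spib alone passed, 1 of 9 tested, where 2.01% of all genes passed as higher. It was 14.3-fold higher in the B220+ cells (3.84 ± 0.46 on the log2 scale, SE; adjusted p = 0.00203, limma). Foxo1 and Bcl11a differed from the Bach2-vector MPPs by 0.27 ± 0.26 and 0.24 ± 0.30 (SE), and their arrays overlapped. Their adjusted p-values were 0.541 and 0.639 (limma), which does not show that the 2 groups were alike. Tcf3 (0.40 ± 0.30, SE), Pax5 (-0.525 ± 0.298) and Ikzf1 (-0.06 ± 0.31) did not pass. Neither did Ikzf3 (0.10 ± 0.48), Pou2af1 (0.34 ± 0.31) and Lef1 (0.30 ± 0.95).

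All 3 B220+ arrays lay on a slide that held 1 array of each other group. Within that slide the B220+ mean was above the control-vector array by 5.08 for Spib, 1.71 for Foxo1 and 1.91 for Bcl11a. With slide as a block these 3 differences still passed, and Ikzf3 passed as well (1.04 ± 0.26, SE; adjusted p = 0.0498, limma), where 9.12% of all genes did. The median of all genes was -0.29 against control-vector MPPs and -0.25 against Bach2-vector MPPs, and quantile normalization moved it to -0.08 and -0.07. The genes that passed divided into 790 higher and 1266 lower against control-vector MPPs, and into 980 and 1037 after quantile normalization. Against Bach2-vector MPPs they divided into 341 higher and 707 lower, and into 450 and 601 after quantile normalization.

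**Figure D2:**
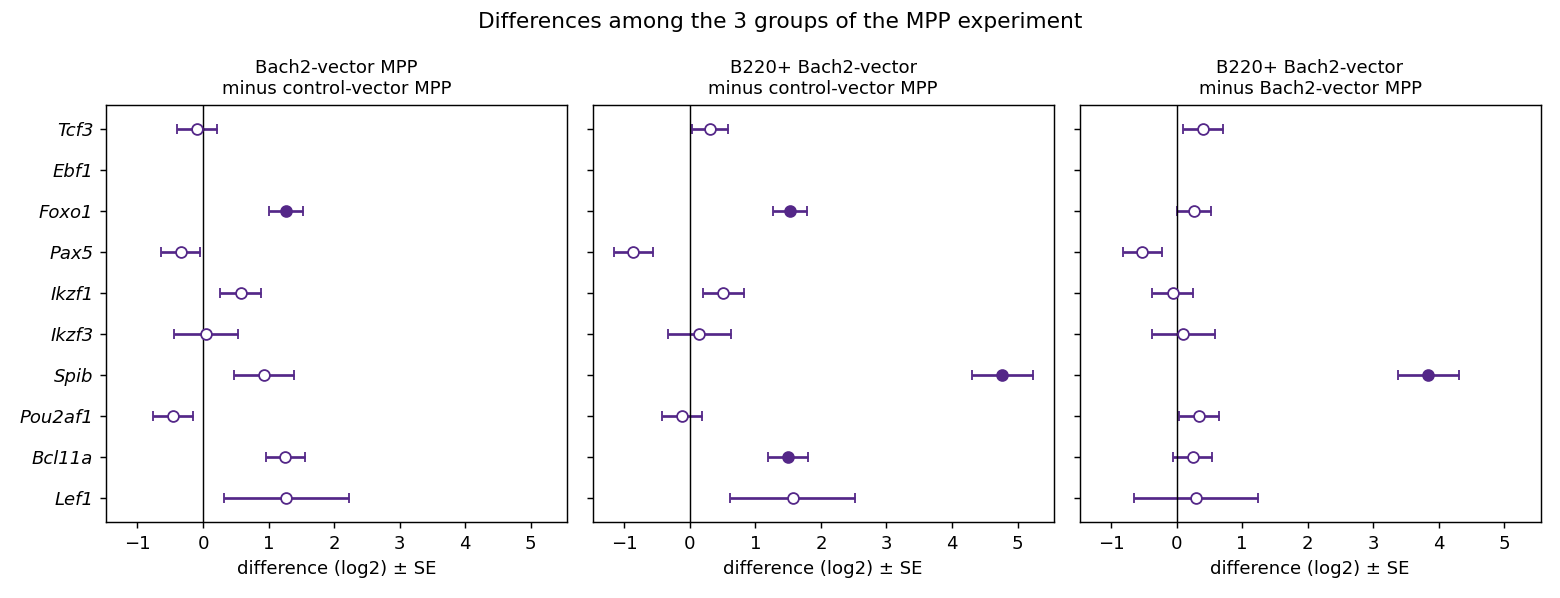
Difference of each factor in the 3 comparisons of the MPP experiment, on the log2 scale with its SE, each panel showing the first-named group minus the second. Filled points passed the test, and Ebf1 was not tested. Spib stands at 4.77 and 3.84 in the B220+ panels, while Foxo1 and Bcl11a stand apart from 0 against control-vector MPPs only.

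Ebf1 read -6.41, -4.66 and -7.41 in B220+ Bach2-vector cells, and only the array at -4.66 was well above background. All control-vector MPP arrays, at -9.18, -7.89 and -7.74, and all Bach2-vector MPP arrays, at -7.74, -7.94 and -6.86, were not. No fold is given for Ebf1, and the lowest B220+ array lay below the highest Bach2-vector array. Pax5 had levels of -5.71, -5.63 and -6.07 in B220+ cells, all below the control-vector arrays given above, as in 23.5% of all genes. That difference did not pass (-0.86 ± 0.30, SE; adjusted p = 0.0934, limma), and the second Pax5 probe had an estimate of the opposite sign, 0.89 ± 0.53 (SE; adjusted p = 0.279, limma). Pou2af1 stayed close to background, at -5.59, -5.31 and -5.07 in B220+ cells and -5.28, -5.30 and -5.04 in control-vector MPPs. Tcf3 (0.30 ± 0.27, SE), Ikzf1 (0.51 ± 0.31) and Lef1 (1.57 ± 0.95) did not pass either. The second probes of Tcf3 and Ikzf1 had estimates of the opposite sign, -0.40 ± 0.32 and -1.59 ± 0.81 (SE). Lef1 in the B220+ cells ranged from -7.06 to -2.94, wider than any other factor in any group.

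The target genes split in the same cells. Of 26 tested, 7 were higher and 1 lower than in control-vector MPPs, and 6 were higher and 2 lower than in Bach2-vector MPPs. Across all 16991 genes tested, 790 were higher and 1266 lower against control-vector MPPs. Against Bach2-vector MPPs 341 were higher and 707 lower. Dntt, which encodes terminal deoxynucleotidyl transferase, was 140-fold higher than in control-vector MPPs (7.13 ± 0.25 on the log2 scale, SE; adjusted p = 5.66e-06, limma). Blnk, an adaptor of pre-B-cell receptor signalling, was 162-fold higher, Il7r 31.8-fold higher and Fcrla 24.0-fold higher, and Cd180 was 11.8-fold lower. Genes of the later programme were not higher by the test: Cd79a averaged -4.69 in B220+ cells, -4.36 in Bach2-vector MPPs and -4.31 in control-vector MPPs, and Ms4a1 was not well above background on any of the 9 arrays. Cd79a, Ms4a1 and Rag1 were singled out after their values were seen, as defining markers of the lineage.

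**Figure D3:**
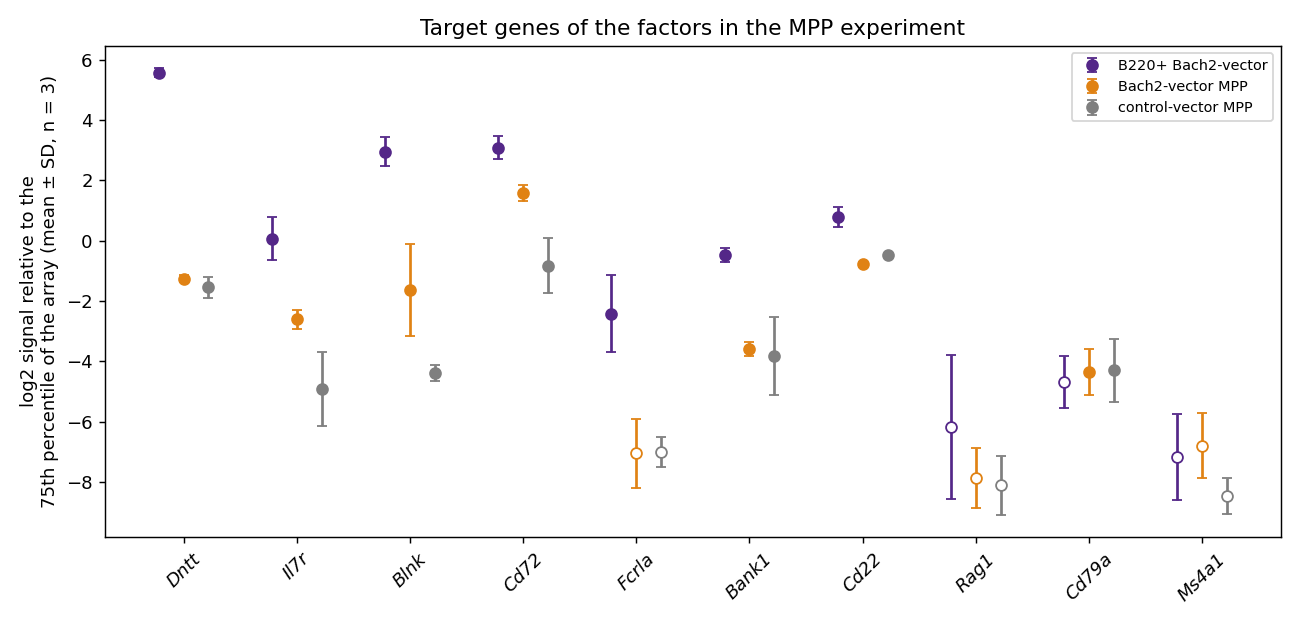
Levels of 10 target genes of the factors in the 3 groups of the MPP experiment, as log2 of signal over the 75th percentile of the array (mean and SD of 3 arrays). Filled points were well above background on all 3 arrays and open points on fewer. Dntt, Il7r, Blnk, Fcrla and Bank1 are highest in B220+ Bach2-vector cells, while Rag1 and Cd79a did not pass in any of the 3 comparisons and Ms4a1 was not tested.

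The label of these cells is B220+, and B220 is also carried by plasmacytoid dendritic cells. The summed level of 7 markers of that cell type was 115 to 188 times the 75th-percentile signal in B220+ Bach2-vector cells, against 46.3 to 84.9 in Bach2-vector MPPs and 36.5 to 78.5 in control-vector MPPs. Of the 7, Cox6a2 and Ly6d were higher than in control-vector MPPs (26.1-fold and 53.5-fold; adjusted p = 0.00376 and 7.17e-04, limma) and 5 did not pass. The 8 neutrophil markers were all above background in the B220+ cells, with a summed level of 285 to 341, against 272 to 329 in Bach2-vector MPPs and 355 to 373 in control-vector MPPs. Of the 8, 2 passed as higher and 1 as lower than in control-vector MPPs, and 5 did not pass (limma). Against Bach2-vector MPPs 2 also passed as higher, 1 passed as lower and 5 did not pass. The median difference of the neutrophil markers was -0.01 and 1.29 in these 2 comparisons. The 7 early B progenitor markers summed to 44.5 to 54.1 in B220+ cells, 2.33 to 4.35 in Bach2-vector MPPs and 0.908 to 1.62 in control-vector MPPs. Of the 7, 2 passed as higher than in control-vector MPPs and 5 did not pass. Against Bach2-vector MPPs 2 passed as higher, 1 passed as lower and 4 did not pass (limma). The 7 NK cell markers summed to 54.4 to 67.3 in B220+ cells, 49.0 to 60.4 in Bach2-vector MPPs and 19.3 to 38.3 in control-vector MPPs. Of 6 NK cell markers tested, 1 passed as higher than in control-vector MPPs and none passed against Bach2-vector MPPs (limma). The 7 monocyte and macrophage markers summed to 32.3 to 43.2 in B220+ cells, 15.9 to 23.0 in Bach2-vector MPPs and 23.5 to 36.4 in control-vector MPPs. Of these, F13a1 and Csf1r were higher than in Bach2-vector MPPs (49.0-fold and 10.4-fold; adjusted p = 0.00536 and 0.0382, limma), and none passed against control-vector MPPs. Of 7 T-cell markers, Cd3g and Cd3d were higher than in both MPP groups, with a summed level of 4.12 to 6.76 in B220+ cells, 5.66 to 7.03 in Bach2-vector MPPs and 3.85 to 4.66 in control-vector MPPs. The part of other cell types in the Spib difference was not tested. In RNA from such bulk samples, fewer cells of a type and less RNA per cell cannot be told apart.

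Among the other B-cell regulators, Bcl6, Mef2c, Irf8, Tcf7, Klf2 and Irf4 were higher in B220+ cells than in control-vector MPPs, 6 of 30, by 3.02-fold to 10.9-fold. Irf8, a factor of B cells and dendritic cells, averaged 5.65 in B220+ cells and 3.89 in control-vector MPPs. Of 22 regulators of other lineages, 3 were higher (Egr1, Klf4 and Id2) and 4 lower (Batf3, Xbp1, Id1 and Cebpb). Across all 16991 genes tested, 790 were higher and 1266 lower in this comparison. Id2, an inhibitor of E proteins such as E2A, was 2.48-fold higher (adjusted p = 0.0376, limma).

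In CLPs the question was whether loss of both Bach factors alters the factor network before B-lineage commitment. None of the 10 factors passed, where 0.00607% of the 16466 genes tested did, 1 gene in all. At an unadjusted p under 0.05 there was 1 factor, Pou2af1, against 3.76% of all genes. Il7r and Flt3, which define CLPs, averaged 4.74 and 6.28 in DD CLPs and 5.00 and 6.10 in WT CLPs.

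Pou2af1 had levels of -0.94, -1.05 and -2.40 in DD CLPs, against 0.91, 0.07 and 1.04 in WT CLPs. Every DD array was below every WT array, by 1.85, 1.12 and 3.44 within the 3 slides. The difference was -2.14 ± 0.49 (SE; adjusted p = 0.819, limma). Groups that did not overlap with DD lower were found for 2.98% of all genes, and Pou2af1 was the only factor among them. With the replicate number as a block, which here is also the slide, no factor passed and Pou2af1 and Spib had the smallest p of the 10 (adjusted p = 0.521 for both, limma).

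Spib read 1.64, -0.15 and -0.30 in DD CLPs, against 2.72, 0.64 and 1.57 in WT CLPs. The groups overlapped, but DD was lower within each slide, by 1.08, 0.79 and 1.87 (-1.25 ± 0.67, SE; adjusted p = 0.999, limma). Foxo1, at 2.03, 1.53 and 1.40 in DD CLPs and 2.47, 1.82 and 1.99 in WT CLPs, was likewise lower within each slide, by 0.44, 0.29 and 0.59, without passing. The second Foxo1 probe gave an estimate of 0.04 ± 0.53 (SE).

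Ebf1 showed no difference of one direction, with levels of 1.58, 0.99 and 1.05 in DD CLPs and 2.34, 0.70 and 0.83 in WT CLPs (-0.09 ± 0.49, SE). Tcf3 (-0.16 ± 0.44), Ikzf1 (0.06 ± 0.35), Ikzf3 (0.04 ± 0.39) and Pax5 (-0.14 ± 0.42) had estimates below their SE. So did Lef1 (-0.40 ± 0.69), which was well above background on 2 of 3 arrays in each group. Bcl11a read 5.44, 5.67 and 5.25 in DD CLPs, against 5.46, 4.47 and 4.56 in WT CLPs, where the first WT array overlapped the DD range (0.62 ± 0.38, SE; adjusted p = 0.999, limma). Of the 26 target genes, 30 other B-cell regulators and 22 regulators of other lineages tested in CLPs, none passed with limma.

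In FoB cells stimulated through IgM, 8 of the 10 factors had lower means in Bach2KO cells than in WT cells, with a median difference of -0.81 against -0.16 over all genes tested, of which 38.1% had an estimate above 0. None passed in the fit that treats the arrays as unpaired, where 2.72% of the 13073 genes did, and 6 were under an unadjusted p of 0.05, against 11% of all genes. Same-numbered Bach2KO and WT arrays deviated strongly together (r = 0.54 to 0.86 over genes). With the replicate number as a block, 6 factors passed, all lower in Bach2KO cells: Bcl11a, Pax5, Ebf1, Tcf3, Ikzf1 and Spib. That block also raised the background, to 22.8% of all genes passing in either direction and 13.2% passing as lower.

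Bcl11a had the largest difference of the 10, with levels of 3.03, 1.97 and 2.74 in Bach2KO FoB cells, against 4.89, 4.02 and 4.11 in WT FoB cells. Every Bach2KO array was below every WT array. The mean was 3.39-fold lower (-1.76 ± 0.40 on the log2 scale, SE; adjusted p = 0.0573, limma), and it passed with the block (adjusted p = 2.26e-05, limma). Without the first Bach2KO array it also passed in the unpaired fit (adjusted p = 0.0248, limma).

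Pax5 read -1.23, -1.55 and -1.85 in Bach2KO FoB cells, against -0.07, -0.90 and -0.50 in WT FoB cells. The groups did not overlap, and the mean was 2.08-fold lower (adjusted p = 0.217 unpaired and 0.00235 with the block, limma). The second Pax5 probe read -3.56, -3.1 and -4.26 on the Bach2KO arrays, against -1.77, -2.48 and -2.40 on the WT arrays, and its last Bach2KO value was not well above background. Ebf1 read 2.39, 1.72 and 2.04 in Bach2KO FoB cells, against 3.36, 2.79 and 2.92 in WT FoB cells. Its 3 paired differences were close to each other, at -0.98, -1.07 and -0.89 (adjusted p = 0.242 unpaired and 0.00252 with the block, limma).

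Tcf3 had levels of 2.69, 1.74 and 2.14 in Bach2KO FoB cells, against 3.66, 2.66 and 2.90 in WT FoB cells, which overlap by the first Bach2KO array. Its paired differences were -0.98, -0.92 and -0.76 (adjusted p = 0.449 unpaired and 0.00522 with the block, limma). Ikzf1, which encodes Ikaros, read 2.86, 1.98 and 2.37 in Bach2KO FoB cells, against 3.67, 2.97 and 3.09 in WT FoB cells. Those groups did not overlap, and the paired differences were -0.81, -0.99 and -0.72 (adjusted p = 0.430 unpaired and 0.00776 with the block, limma). The second probes of Tcf3 and Ikzf1 had unpaired estimates of the same sign, -1.02 ± 0.43 and -0.74 ± 0.28 (SE).

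Spib stood at 5.12, 5.64 and 5.58 in Bach2KO FoB cells, against 6.25, 6.14 and 6.28 in WT FoB cells. The groups did not overlap, and the difference was -0.78 ± 0.30 (SE; adjusted p = 0.35 unpaired and 0.0158 with the block, limma). In all, Bcl11a, Pax5, Ebf1, Ikzf1 and Spib were lower without overlap, 5 of 10, where 10.6% of all genes were.

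**Figure D4:**
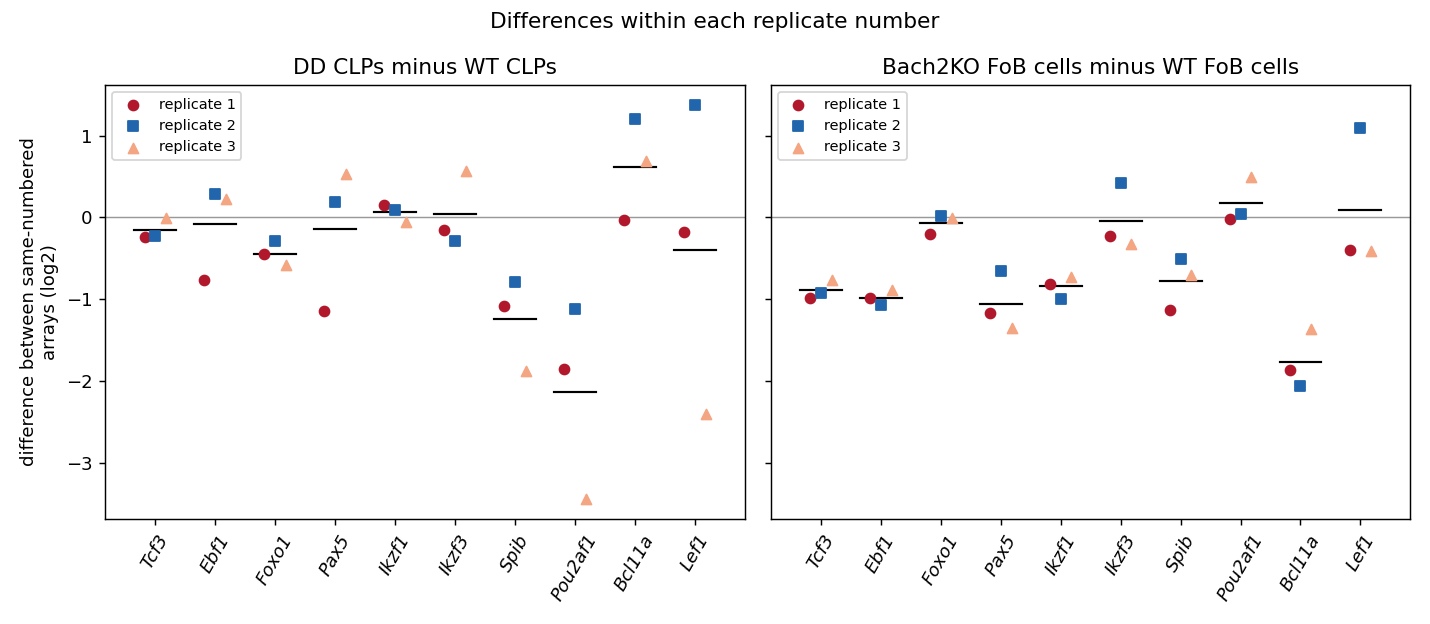
Difference of each factor between same-numbered arrays, on the log2 scale, for DD minus WT CLPs and for Bach2KO minus WT FoB cells, with bars at the mean of the 3 differences. In FoB cells Tcf3, Ebf1, Pax5, Ikzf1, Spib and Bcl11a lie below 0 in all 3 replicate numbers, and in CLPs Pou2af1, Spib, Foxo1 and Tcf3 do, with the third Tcf3 difference at -0.008.

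The other 4 factors showed no such shift in FoB cells. Foxo1 read 3.58, 3.1 and 3.38 in Bach2KO FoB cells and 3.79, 3.08 and 3.38 in WT FoB cells (-0.07 ± 0.32, SE; adjusted p = 0.949, limma). Pou2af1 was the factor with the highest estimate, 0.18 ± 0.41 (SE), with levels of 6.17, 5.16 and 5.70 in Bach2KO cells and 6.18, 5.11 and 5.20 in WT cells. Ikzf3 (-0.04 ± 0.50) and Lef1 (0.09 ± 0.44) had estimates within their SE. None of these 4 passed with the block.

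The number of factors that passed with the block depended on which arrays were used: 6 without the second pair, and 3 each without the first and without the third. Bcl11a and Ebf1 passed in each of these reduced fits. With slide as the block instead, where the first pair shares 1 slide and the others share another, 5 passed (all but Spib, adjusted p = 0.0535, limma), where 3.92% of all genes passed as lower. The block together with quantile normalization, which moved the median of all genes from -0.16 to -0.10, also left 5.

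Other genes of the B-cell programme were measured on the same arrays. With the block 9 of 24 target genes were lower and 5 higher in Bach2KO FoB cells, and 11 of 27 other B-cell regulators were lower and 1 higher (limma). Across all 13073 genes tested, 1728 were lower and 1252 higher with the block. Without it 67 were lower and 289 higher. In the unpaired fit 1 of each list passed, the complement receptor gene Cr2 at 4.17-fold lower and Klf2, a quiescence and homing factor, at 2.71-fold lower (adjusted p = 0.00868 and 0.0400, limma). Regulators of other lineages went the other way: in the unpaired fit 5 of 16 were higher and none lower, among them Prdm1, the plasma cell factor Blimp-1, at 30.6-fold higher (adjusted p = 8.62e-04, limma). With the block 11 of them were higher and 1, Id1, lower.

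Cell markers also differed between the FoB groups. The summed level of 7 B-cell markers was 211 to 344 in Bach2KO FoB cells, against 402 to 727 in WT FoB cells, though Cd79a averaged 2.64 in Bach2KO cells and 2.71 in WT cells. The 4 erythroid markers measured summed to 3.68 to 16.0 in Bach2KO cells, against 0.311 to 1.35 in WT cells, and Hba-a1 was 13.3-fold higher (adjusted p = 0.0391 unpaired, limma). The 8 neutrophil markers summed to 4.18 to 19.5 in Bach2KO cells, against 1.17 to 10.73 in WT cells. With the block, 4 of the 5 neutrophil markers tested were higher in Bach2KO cells (Camp, Ltf, Ngp and S100a8, by 7.19-fold to 9.56-fold), and so were the monocyte markers Lyz2 at 6.99-fold and Cd14 at 2.96-fold (limma). In the unpaired fit none of the 5 neutrophil and 4 monocyte and macrophage markers tested passed. Of 5 plasmacytoid dendritic cell markers tested, 3 were higher with the block, Ccr9 at 14.7-fold, Cox6a2 at 4.19-fold and Pacsin1 at 1.54-fold (limma). In the unpaired fit 2 of these 5 markers were higher. The 7 T-cell markers summed to 75.3 to 94.3 in Bach2KO cells, against 85.6 to 137 in WT cells. Of 5 tested, 1 was higher with the block, Cd3g at 2.27-fold, and none passed in the unpaired fit (limma). Ly6a, which encodes Sca-1, was 9.03-fold higher (adjusted p = 8.26e-04 unpaired, limma). The part of other cell types in the factor levels of FoB cells, and in the lower levels in Bach2KO cells, was not tested.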

How the data were processed

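RNA of 21 samples was measured on Agilent single-colour mouse arrays. The deposited files hold the spot intensity as the scanner software Agilent Feature Extraction wrote it, version 10.7.3.1 per the file headers and 9.1 per the submitters' processing notes. The deposited value table was equal to the processed intensity in the scanner files. Its flags for background and outliers, written by the same software, were used as deposited. The file headers name the mm9 build, and no coordinates of that build are given.

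Control spots and spots flagged as outliers were left out, and log2 of the processed intensity minus the array's 75th percentile was computed. Probes were named through RefSeq accessions (26413 of 55681 matched 1 symbol), with 1 probe per gene, the highest on average. Testing required a probe well above background on 3 or more of the arrays in an experiment, with 2 or more values in each group. Each experiment had its own limma fit (version 3.58.1, R 4.3.3; lmFit, then eBayes), with Benjamini-Hochberg adjustment and a threshold of 0.05. The 3 MPP groups shared 1 fit. An outlier spot removed Tcf3 from the third Bach2-vector MPP array, so that mean rests on 2 arrays. The fit was also run on simulated data with known changes, with noise drawn for each gene and array on its own. Only the runs with the replicate block held a deviation shared by same-numbered arrays. The runs without it therefore do not test how the unpaired fit handles such shared deviations. The number of arrays limits the precision.

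Groups share replicate numbers in the labels. Deviations from the group means correlated above 0.1 in every same-numbered pair of the CLP (0.22 to 0.43), vector (0.30 to 0.65) and FoB (0.54 to 0.86) comparisons, so the numbers were taken as pairs there. Unlike-numbered arrays that shared a slide could do so too. For Bach2KO array 2 with WT FoB array 3, r was 0.50. For Bach2-vector array 2 with control-vector array 3 it was 0.31. The rule thus cannot tell a shared number from a shared slide. In the B220+ comparisons the same-numbered arrays did not all exceed 0.1.

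Alternatives were quantile normalization, normexp correction (offset 50, on median spot signals, since the files hold no mean signal), no filter, a stricter filter, outliers kept, a variance trend, the deposited value table, replicate and slide blocks, single groups and other probes, and leaving out arrays. The block with quantile normalization or without a pair was added after seeing the data. All 10 factors are named in each comparison; from each list, genes with the smallest p are. The members and lists were chosen with earlier results of these data known.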

Additional observations from a re-analysis of the deposited data

How the results depend on the processing

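The 3 arrays per group and signals near background for Ebf1, Lef1, Pax5 and Pou2af1 in the MPP experiment limit what can be seen. Factors that passed numbered 3 and 1 in the B220+ comparisons and 0 in CLPs under every alternative except slide as a block (4 against control-vector MPPs). Between vectors, 1 factor passed in the main test, 2 with normexp correction (Bcl11a added), and 0 with no filter, with the replicate block, with only the 2 groups and without any single array. In FoB cells 0 passed in the main test, 1 with quantile normalization, with the stricter filter and without the first Bach2KO array, 5 with the slide block, 6 with the replicate block, 5 with that block and quantile normalization, and 3 to 6 with the block and a pair left out. Of all genes, 1 passed in CLPs, 0 with quantile normalization or the replicate block, and 0 to 16 without single arrays. Between vectors 305 passed, and 106 to 199 without single arrays. Against control-vector MPPs 2056 passed in B220+ cells, and 1034 to 2636 without single arrays. Against Bach2-vector MPPs 1048 passed, 659 with only the 2 groups, and 443 to 1710 without single arrays. In FoB cells 356 passed, 123 with normexp, 1196 with the slide block, 2980 with the replicate block, 1296 with that block and quantile normalization, with the block 1537 without the first pair and 1478 to 1900 over the pairs, and 161 to 441 without single arrays. The replicate block, where the numbers do not pair the arrays, kept the factor counts of 3 and 1 in the B220+ comparisons.

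No factor that passed in a main test changed direction; Ikzf3, which passed against control-vector MPPs with the slide block alone, did. Estimates that did not pass in a main test turned as follows, in log2. With quantile normalization: Ikzf1 in CLPs (-0.086), Pou2af1 in B220+ cells against control-vector MPPs (0.28), Ikzf1 against Bach2-vector MPPs (0.001) and Foxo1 in FoB cells (0.11, also with the block). With normexp: Lef1 (0.18) and Pax5 (0.033) in CLPs, Ikzf3 between vectors (-0.02), and Pou2af1 against control-vector MPPs (0.17). With the other probe: Foxo1 in CLPs (0.038) and FoB cells (0.033), Ikzf1 between vectors (-0.71) and against control-vector MPPs (-1.59), in B220+ cells Pax5 (0.89 against the control vector, 0.92 against the Bach2 vector) and Tcf3 (-0.40 and -0.36). Without single arrays or pairs the ranges that crossed 0 were, in CLPs, -0.38 to 0.44 (Ebf1), -0.13 to 0.22 (Ikzf1), -0.18 to 0.31 (Ikzf3), -1.04 to 0.41 (Lef1), -0.33 to 0.24 (Pax5) and -0.45 to 0.17 (Tcf3). They were -0.51 to 0.39 (Ikzf3) and -0.215 to 0.019 (Tcf3) between vectors, and -0.41 to 0.43 (Ikzf3) and -0.24 to 0.017 (Pou2af1) against control-vector MPPs. Against Bach2-vector MPPs they were -0.37 to 0.13 (Ikzf1), -0.24 to 0.32 (Ikzf3) and -0.94 to 1.12 (Lef1), and in FoB cells -0.23 to 0.12 (Foxo1), -0.44 to 0.42 (Ikzf3), -0.40 to 0.49 (Lef1) and -0.07 to 0.52 (Pou2af1). With the block, Foxo1 was 0.004 and Ikzf3 0.047 without the first FoB pair, and Ikzf3 was 0.1 without the third; Lef1 was -0.287 without the second WT FoB array. Fits without an array pool the spread over the arrays left. The cause of these changes was not tested.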
